A study of Mus musculus with 19 samples.

Results

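The transcription and chromatin factors Atf5, Lhx2, Ldb1, Emx2, Kdm1a, Ebf1, Ebf2, Ebf3 and Ebf4 were followed in the mouse vomeronasal organ (VNO). These 9 genes were listed by name as regulators of olfactory and vomeronasal receptor expression, out of 35596 genes in the files, and none was chosen for its level. The study sequenced polyA+ RNA of whole VNOs from females at postnatal day 21 after conditional loss of Smad4, the shared mediator of BMP and TGF-beta signals. In the AP-2eCre line, Cre is expressed from the Tfap2e locus in basal vomeronasal sensory neurons (VSNs) that are still immature, and the 3 groups of 3 libraries were AP-2eCre+/-/Smad4flox/flox knockouts (cKO), AP-2eCre+/- heterozygotes and Smad4flox/flox controls, which the labels call Wild Type. In the OMPCre line, Cre is expressed from the Omp locus in mature apical and basal VSNs, and the groups were OMPCre+/-/Smad4flox/flox cKO, OMPCre+/- heterozygotes and Smad4flox/flox controls, again with 3 libraries each. The heterozygotes therefore carry Cre without the floxed allele, and both cKO groups carry Cre and the floxed allele. The labels number the libraries as biological replicates, but nothing read here says whether a library is 1 animal or a pool.

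As background, a sensory neuron of the nose expresses a single receptor gene or very few, chosen from large families held in silent chromatin. In olfactory neurons, Lhx2 and Ebf proteins bind receptor enhancers, and Ldb1 joins Lhx2-bound enhancers to each other. Kdm1a removes histone methyl marks and is needed when a receptor gene is first switched on. Once receptor protein is made, the unfolded protein response kinase PERK favours translation of Atf5, which stabilises the choice. Emx2 is a homeodomain factor of olfactory epithelium. Atf5 is controlled largely through translation, which RNA levels do not report.

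Library totals lay between 43385516 and 134042284 estimated counts, and all 9 genes passed the filter on low counts in every comparison. Smad4 lay at 33.8 to 66.5 CPM (counts relative to library size, scaled by TMM) in the AP-2eCre cKO against 39.6 to 81 in its controls, and at 54.4 to 62.4 in the OMPCre cKO against 64.6 to 83.8 in its controls, so only the OMPCre groups were apart. The VSN channel Trpc2 was present in every library at 50.1 to 138 CPM, while the labels name VSNs as the cell type and 5 fibroblast genes summed to 14439 to 35511 CPM. The tissue was thus a mixture, in which fewer cells of a type and less RNA per cell cannot be told apart. Heterozygote replicate 1 of the AP-2eCre line had the lowest Trpc2 and the lowest V2r sum, at 1986 CPM against a median of 4049 over 18 libraries. In that line V2r sums were 2229 to 2984 CPM in the cKO, up to 3592 in the heterozygotes and 3913 to 4810 in the Smad4flox/flox controls. The AP-2eCre results that heterozygote replicate 1 moved most are also given without it. Replicate 3 of the OMPCre line's Smad4flox/flox controls held skeletal muscle RNA, with 3 muscle genes at up to 75.3 CPM in sum against at most 5.22 in any other library.

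Sequences are shown first for the transcripts on which the isoform results below turn. Atf5 (ENSMUSG00000038539.15) lies at chr7:44812256-44816658 on the minus strand of GRCm38, where Il4i1 and Nup62 overlap it on the other strand. Atf5-201 begins in an exon at chr7:44816402-44816658, and Atf5-202 begins 1000 bases further into the gene, in an exon at chr7:44815482-44815658 that lies in the first intron of Atf5-201. Both continue into the same second exon, at chr7:44814989-44815282. The 250 bases before each start are given from RefSeq (GRCm38.p6), 5′ to 3′ on the minus strand, with no letters marked.
Atf5-201, chr7:44816659-44816908: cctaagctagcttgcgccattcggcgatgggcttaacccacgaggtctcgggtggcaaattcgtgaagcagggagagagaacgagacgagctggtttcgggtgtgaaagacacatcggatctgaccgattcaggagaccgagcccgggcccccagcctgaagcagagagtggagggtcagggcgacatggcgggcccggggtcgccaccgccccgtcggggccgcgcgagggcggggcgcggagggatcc
Atf5-202, chr7:44815659-44815908: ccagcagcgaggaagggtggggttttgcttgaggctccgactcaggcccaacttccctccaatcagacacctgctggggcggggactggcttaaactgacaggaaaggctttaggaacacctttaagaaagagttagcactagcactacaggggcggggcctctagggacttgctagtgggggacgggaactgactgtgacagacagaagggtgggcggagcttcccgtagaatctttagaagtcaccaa
Kdm1a (ENSMUSG00000036940.15, chr4:136550540-136602723, minus strand) has 9 annotated transcripts here. Only Kdm1a-208 holds a 12-base exon, at chr4:136563438-136563449, which is known as a neuron-enriched microexon of this gene. The exon is given in capitals between 24 bases of each neighbouring exon, from the GENCODE vM21 transcript.
Kdm1a-208: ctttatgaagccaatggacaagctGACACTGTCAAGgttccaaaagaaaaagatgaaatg

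Per length, Atf5 was the most abundant of the regulators and Ebf4 the least. In the 12 control libraries of both lines, deposited TPM averaged 261 ± 47.2 (SD, n = 12) for Atf5 and 112 ± 20.9 for Ebf1 (chr11:44617317-45008091), the first Ebf family member, and their ranges did not overlap. Emx2 (chr19:59458372-59465357) followed at 55.5 ± 15.3 TPM, Ldb1 (chr19:46031570-46045214) at 37.6 ± 6.73, Kdm1a at 36 ± 6.15, Lhx2 (chr2:38339281-38369733) at 32 ± 9.47 and Ebf3 (chr7:137193673-137314445) at 31.3 ± 8.4. Neighbours among Ldb1, Kdm1a, Lhx2 and Ebf3 did not differ beyond their spread, the first of each pair being higher in 8, 7 and 9 of 12 libraries. Ebf2 (chr14:67233292-67430918) averaged 21.9 ± 5.38 TPM and was below Ebf3 in 12 of 12 libraries. Ebf4 (chr2:130295169-130370481) averaged 2.24 ± 0.98 TPM and did not overlap with Ebf2. These levels are a description without a test. TPM sums depend on how reads were assigned to short transcripts, such as the 422-base Emx2-203, which held 13.6% of Emx2 counts.

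**Figure D1:**
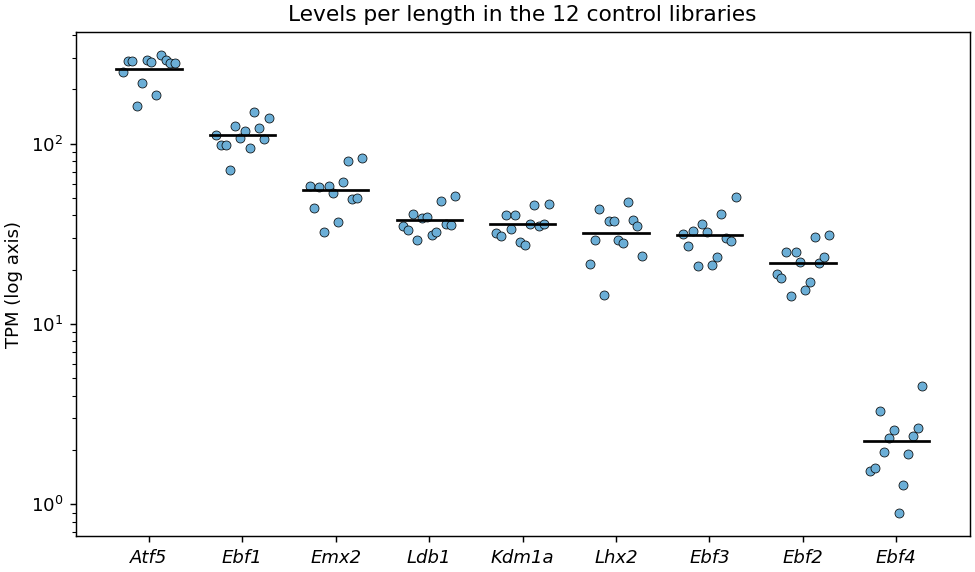
Deposited TPM summed per gene, on a log axis, for each regulator in the 12 control libraries (points) with the mean (bar). Atf5 averages 261 TPM and Ebf4 2.24 TPM, and the ranges of Ldb1, Kdm1a, Lhx2 and Ebf3 overlap.

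Kdm1a and Ldb1 were the steadiest. Over 18 libraries, Kdm1a ranged from 58.9 to 70.6 CPM with a coefficient of variation of 4.64%, lower than that of all but 0.612% of 15838 genes with a mean of at least 1 CPM. Ldb1 ranged from 68.3 to 83.2 CPM (6.1%). Over the same genes the median coefficient was 14.3%. Atf5, at 206 to 489 CPM (19.2%), and Ebf4, at 3.49 to 9.85 CPM (27.7%), varied most among the regulators. The lowest values of Atf5, Lhx2, Emx2, Ebf1, Ebf2 and Ebf3 were all in heterozygote replicate 1 of the AP-2eCre line.

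**Figure D2:**
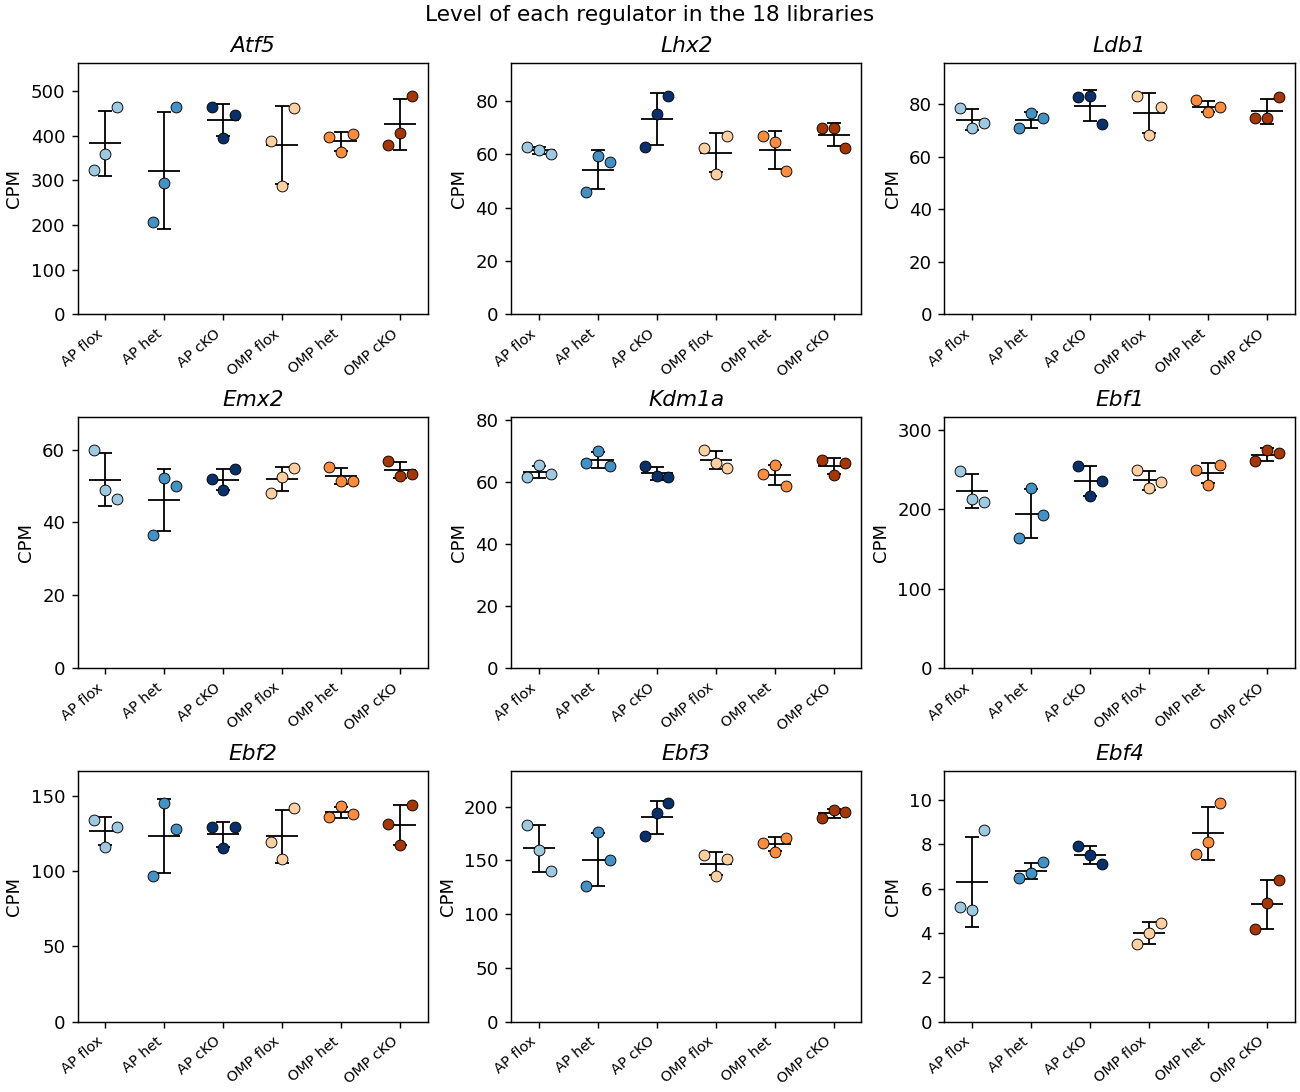
CPM of each regulator in 18 libraries, 3 per group, with the group mean and SD (bars). AP and OMP stand for the AP-2eCre and OMPCre lines, flox for Smad4flox/flox and het for Cre heterozygotes. Kdm1a stays between 58.9 and 70.6 CPM, and Ebf4 in the OMPCre line is at 3.49 to 4.47 CPM in the flox group and at 7.55 to 9.85 CPM in the heterozygotes.

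The first question was whether loss of Smad4 from immature basal VSNs altered these regulators. None of the 9 passed the edgeR quasi-likelihood test, adjusted by Benjamini-Hochberg, in the AP-2eCre cKO, and of all 18495 genes tested 0.0378% did. DESeq2 likewise called 0 of the 9, and 1.54% of its 20554 genes. At an unadjusted p under 0.05 there were 2 of 9, Lhx2 and Ebf3, against 10.2% of all genes. This count was 0 without cKO replicate 3 and with the Smad4flox/flox controls alone, and 1 without cKO replicate 2, Smad4flox/flox replicate 3 or heterozygote replicate 3. In 1 of 9, Lhx2, the cKO and control libraries did not overlap, against 5.06% of all genes.

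Lhx2, the LIM-homeodomain factor of receptor enhancers, was at 62.8, 75.2 and 82 CPM in the AP-2eCre cKO. In the Smad4flox/flox controls it was at 62.7, 61.6 and 60.3 CPM, and in the heterozygotes at 45.8, 59.6 and 57.3 CPM. The lowest cKO library was level with the highest control, and the other two were above all controls. The log2 fold change was 0.34 (SE 0.113, 95% interval 0.09 to 0.60), with an adjusted p of 0.353 (edgeR quasi-likelihood, Benjamini-Hochberg). The exact permutation p was 0.012, the smallest that the 84 ways of choosing 3 of 9 libraries allow, and without heterozygote replicate 1 the log2 fold change was 0.29. In the same libraries the apical markers Gnai2, Meis2 and Nrp2 summed to 972 to 1014 CPM in the cKO against 751 to 905 CPM in controls. The 5 progenitor markers summed to 171 to 200 CPM against 95.6 to 181, with 5 of 5 higher, and the 8 main olfactory markers to 590 to 655 CPM against 458 to 598, with 7 of 8 higher. Rtp1, the most abundant of the 8, averaged 289 CPM in the cKO against 220 CPM in controls. The immature neuron markers Gap43, Stmn2 and Dpysl3 summed to 586 to 857 CPM against 477 to 716, with 3 of 3 higher, and the 5 basal VSN markers to 338 to 434 CPM against 263 to 566, with 5 of 5 lower. All 4 sustentacular markers were also lower, at 364 to 540 CPM in sum against 477 to 2095, and all 4 B cell markers higher, at 15.1 to 23 CPM against 10 to 27.9. The 5 basal markers were lower against both kinds of control together. Tfap2e, the Cre locus, averaged 15.4 CPM in the Smad4flox/flox controls, 7.5 in the heterozygotes and 11.2 in the cKO. Against the heterozygotes alone Gnao1 (190 against 171 CPM) and Vmn2r1 (94.9 against 92.8) were also higher. Vmn2r2 (60.9 against 86.1) and H2-M10.3 (22.2 against 30) were lower. The part of all these cell types in the Lhx2 difference was not tested.

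Ebf3, whose family binds receptor enhancers with Lhx2, was at 173, 194 and 203 CPM in the AP-2eCre cKO. In the Smad4flox/flox controls it was at 183, 160 and 140 CPM, and in the heterozygotes at 126, 176 and 150 CPM. The groups overlapped. The log2 fold change was 0.29 (SE 0.118, 95% interval 0.03 to 0.55), with an adjusted p of 0.445 (edgeR quasi-likelihood, Benjamini-Hochberg), and it was 0.24 without heterozygote replicate 1.

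Atf5 was at 464, 394 and 445 CPM in the AP-2eCre cKO, against 206 to 465 CPM in the 6 controls. The cKO libraries lay within the range of the controls in CPM. In deposited TPM, which is not scaled by TMM, they were at 337, 421 and 449 against 161 to 290 in the controls. The log2 fold change of 0.31 had a 95% interval of -0.19 to 0.80, and it was 0.19 without heterozygote replicate 1. For the other 6, intervals were narrowest for Kdm1a (-0.20 to 0.10) and Ldb1 (-0.06 to 0.26) and widest for Ebf4 (-0.19 to 0.59). Emx2 had 0.08 (-0.20 to 0.37), Ebf1 0.18 (-0.09 to 0.44) and Ebf2 -0.01 (-0.26 to 0.25). The alternative fits gave Ebf1 0.07 to 0.28. Without heterozygote replicate 1 Emx2 had 0.01, Ebf1 0.11 and Ebf2 -0.07. The median over the 9 was 0.18, with 7 higher and 2 lower, against a median of 0.00 over all genes tested.

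Loss of Smad4 from mature VSNs gave a similar count. In the OMPCre cKO 0 of 9 passed the edgeR quasi-likelihood test, adjusted by Benjamini-Hochberg, and so did 0% of all 18623 genes, while DESeq2 called 0 of the 9 and 46 genes in all (0.239%). At an unadjusted p under 0.05 there were 2 of 9, Ebf3 and Ebf1, against 3.95% of all genes. The count was 0 with counts from length-scaled TPM, and 1 with the Smad4flox/flox controls alone, with all 18 libraries in 1 fit, and without any single cKO library, Smad4flox/flox replicate 2 or 3, or heterozygote replicate 2. Ebf3 and Ebf1 had no overlap between cKO and control libraries, against 2.34% of all genes.

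Ebf3 was at 189, 197 and 195 CPM in the OMPCre cKO. It was at 155, 135 and 151 CPM in the Smad4flox/flox controls and at 166, 158 and 171 CPM in the heterozygotes. All cKO libraries were above all controls, and the heterozygotes were above the Smad4flox/flox controls. The log2 fold change was 0.31 (SE 0.078, 95% interval 0.14 to 0.49), with an unadjusted p of 0.00268 and an adjusted p of 0.909 (edgeR quasi-likelihood, Benjamini-Hochberg). The exact permutation p was 0.012. Leaving out each library in turn gave 0.27 to 0.34.

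Ebf1 was at 260, 275 and 271 CPM in the OMPCre cKO. It was at 249, 226 and 234 CPM in the Smad4flox/flox controls and at 249, 231 and 255 CPM in the heterozygotes. The cKO libraries were above all controls, the closest by a few CPM. The log2 fold change was 0.16 (SE 0.0658, 95% interval 0.01 to 0.31), the adjusted p was 1 (edgeR quasi-likelihood, Benjamini-Hochberg), and the exact permutation p was 0.024. In these libraries the apical markers summed to 935 to 983 CPM in the cKO against 806 to 896 in controls, with 3 of 3 higher. The immature neuron markers summed to 597 to 651 CPM against 527 to 603, also with 3 of 3 higher. Progenitor markers summed to 77.8 to 115 CPM against 109 to 169, with 3 of 5 lower, and B cell markers to 8.71 to 14.1 CPM against 10.8 to 26.1, with 4 of 4 lower. Main olfactory markers had 6 of 8 lower (median log2 fold change -0.24) and sustentacular markers 3 of 4 lower (-0.22). Pericyte and smooth muscle markers had 4 of 4 higher (0.18) and fibroblast markers 5 of 5 (0.09). The part of these cell types in the Ebf3 and Ebf1 differences was not tested. Lhx2 had 0.14 (-0.08 to 0.36) in this comparison, Atf5 0.15 (-0.17 to 0.46) and Emx2 0.06 (-0.09 to 0.20). The alternative fits gave Lhx2 0.13 to 0.24. Ldb1, Kdm1a and Ebf2 had -0.01, 0.01 and 0.00, and Ebf4 had -0.24 with an SE of 0.342. Single libraries moved several of these, to 0.03 for Atf5 without cKO replicate 3, 0.02 for Emx2 without cKO replicate 1 and -0.06 for Ebf4 without heterozygote replicate 3. Against the Smad4flox/flox controls alone Ebf4 turned to 0.40, and against the heterozygotes alone it had -0.68. The median over the 9 was 0.06 against 0.00 over all genes.

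With both lines in a single fit, chosen after the separate lines had been seen, Ebf3 had a log2 fold change of 0.30 (SE 0.07, 95% interval 0.15 to 0.45) and an adjusted p of 0.168 (edgeR quasi-likelihood, Benjamini-Hochberg). DESeq2 gave it an adjusted p of 0.0224, the single call among the 9, beside 104 of 20886 genes (0.498%). By edgeR 0 of 9 passed, against 0.113% of 19465 genes, and 3 of 9 (Ebf3, Lhx2 and Ebf1) had an unadjusted p under 0.05, against 8.72%. Lhx2 had 0.24 (0.08 to 0.41) and Ebf1 0.17 (0.02 to 0.31). The apical marker Gnai2 had 0.23 and Nrp2 had 0.26 in this fit. Immature neuron markers had 3 of 3 higher (median 0.24), pericyte and smooth muscle 3 of 4 (0.21) and fibroblast 5 of 5 (0.16). Sustentacular markers had 4 of 4 lower (median -0.22) and basal VSN markers 4 of 5 (-0.13). The part of these cell types in the Ebf3, Lhx2 and Ebf1 differences was not tested.

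**Figure D3:**
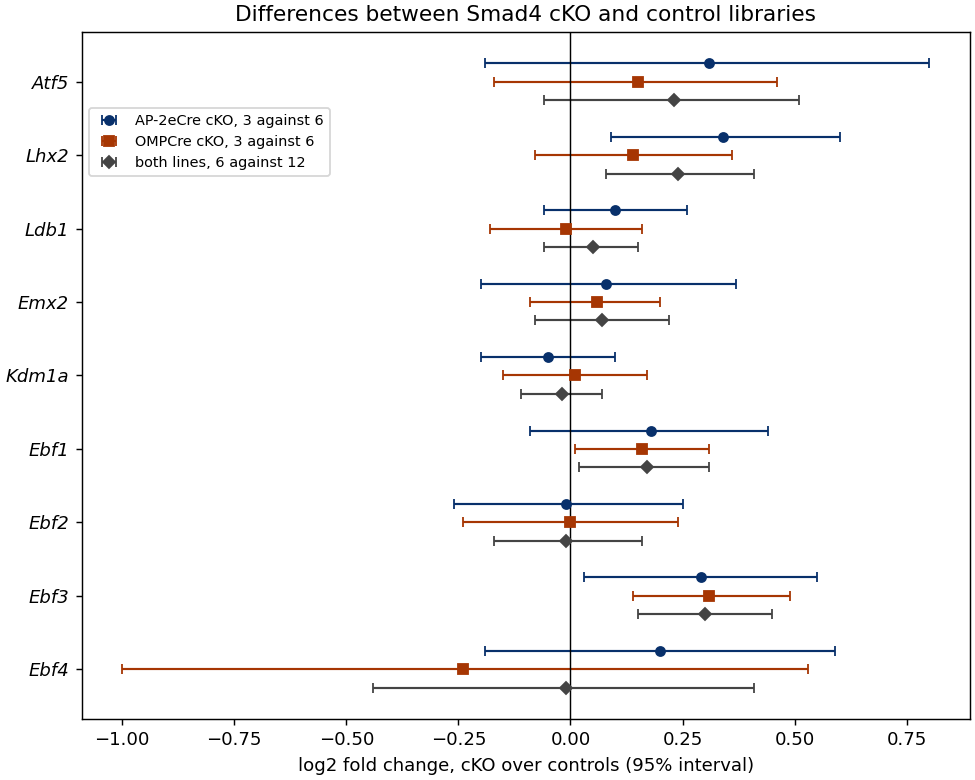
Log2 fold change of each regulator, cKO over controls, with its 95% interval, in the AP-2eCre line (circles), the OMPCre line (squares) and both (diamonds). The intervals of Ebf3 lie above 0 in all 3 comparisons (0.03 to 0.55, 0.14 to 0.49 and 0.15 to 0.45), none of which passed adjustment by edgeR.

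The cKO effects were not shown to differ between the lines. The test of the difference itself called 0 of 9, as it did 0% of all genes, with 0 of 9 also at an unadjusted p under 0.05, against 4.91%, and 0 by DESeq2, against 0.0979%. For Lhx2 the AP-2eCre effect exceeded the OMPCre effect by 0.20 on the log2 scale, with a 95% interval of -0.13 to 0.53. This was 0.11 without AP-2eCre cKO replicate 3 and 0.30 without AP-2eCre cKO replicate 1. For Ebf3 the difference was -0.03 (-0.33 to 0.28). The widest was that of Ebf4, 0.44 (-0.41 to 1.28), which was 0.27 without OMPCre heterozygote replicate 3 and 0.29 without OMPCre cKO replicate 1.

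Between the control kinds, Ebf4 stood out in the OMPCre line. Ebf4, the fourth family gene, was at 3.49, 4 and 4.47 CPM in the Smad4flox/flox controls and at 7.55, 8.11 and 9.85 CPM in the OMPCre heterozygotes. The groups did not overlap, as in 11.6% of all genes counting either direction. The log2 fold change was 1.09 (SE 0.183, 95% interval 0.66 to 1.52), with an unadjusted p of 6.17e-04, an adjusted p of 0.315 (edgeR quasi-likelihood, Benjamini-Hochberg) and 4.19e-04 by DESeq2, which called 147 of 20267 genes (0.725%). So 0 of 9 passed by edgeR, against 0.0441% of all genes, and 1 of 9 had an unadjusted p under 0.05, against 5.54%. The OMPCre cKO, at 4.17, 5.36 and 6.37 CPM, overlapped the Smad4flox/flox controls and lay below every heterozygote.

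Ebf4 varied together with markers of main olfactory neurons. In the OMPCre line Cnga2, the olfactory channel subunit, was at 14.5, 11.7 and 7.14 CPM in the Smad4flox/flox controls and at 25.6, 26.3 and 26.8 CPM in the heterozygotes. Gnal, the olfactory G protein subunit, was at 51.4, 40.5 and 24.7 CPM and at 89.3, 90.6 and 104 CPM. All 8 main olfactory markers were detected, and their sum was 383 to 474 CPM in the Smad4flox/flox controls, 564 to 610 in the heterozygotes and 456 to 504 in the cKO. Over 18 libraries, log2 levels of Ebf4 and Gnal had a Pearson r of 0.76 (Spearman 0.76), which was 0.11 once each group's mean was removed. Of the 4 sustentacular markers 3 were higher in the heterozygotes, with a median log2 fold change of 0.73, among them Cyp2g1 at 93.1 against 45.5 CPM on average, while their sum, 505 to 632 CPM, lay within the 242 to 884 CPM of the Smad4flox/flox controls. The fibroblast markers, 5 of 5, were higher too, at 24001 to 34029 CPM in sum against 14439 to 24904. Of the cartilage and bone markers 3 of 4 were higher, at 897 to 1181 CPM against 489 to 956. All 4 B cell markers were lower, at 10.8 to 21.6 CPM against 14.5 to 26.1. The part of main olfactory tissue, supporting cells and these other cell types in the Ebf4 difference was not tested.

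**Figure D4:**
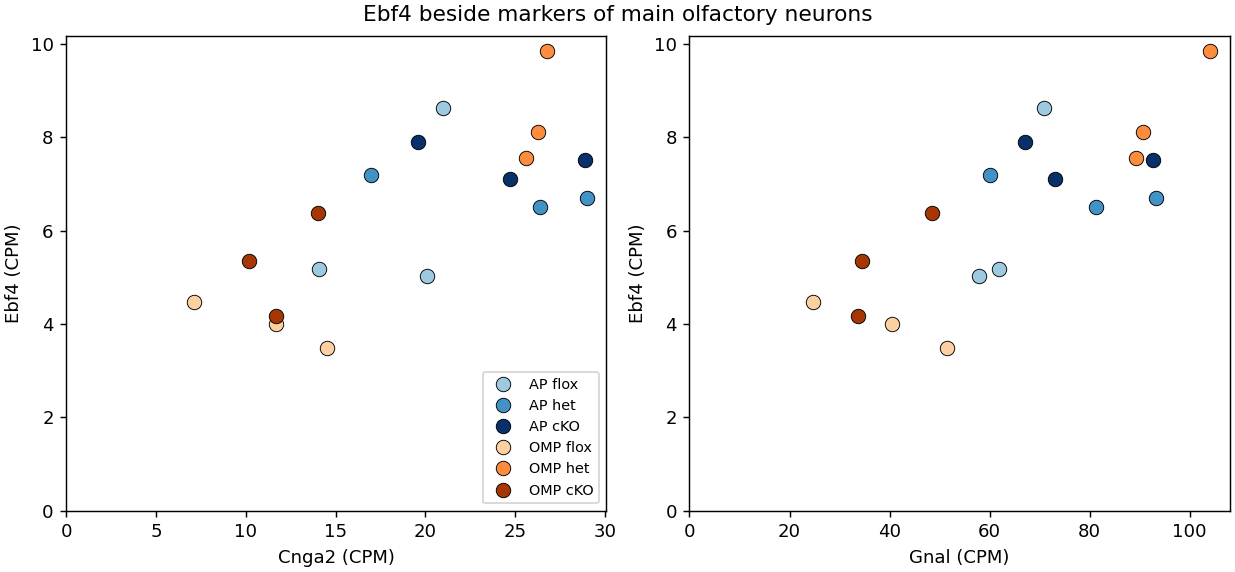
Ebf4 against Cnga2 (left) and Gnal (right), in CPM, in 18 libraries coloured by group. The 3 OMPCre heterozygotes are at 7.55 to 9.85 CPM of Ebf4 and 89.3 to 104 CPM of Gnal, and the 3 Smad4flox/flox libraries of that line at 3.49 to 4.47 and 24.7 to 51.4 CPM.

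In the AP-2eCre line, heterozygotes and Smad4flox/flox controls gave 0 of 9 by edgeR, against 0.0224% of all genes, 0 at an unadjusted p under 0.05, against 5.18%, and 0 by DESeq2, against 0.833%. Lhx2 in the heterozygotes was below each Smad4flox/flox control, where 9.87% of all genes did not overlap in either direction. Its log2 fold change was -0.18 (-0.45 to 0.09) and -0.07 without heterozygote replicate 1, and the exact permutation p of 0.1 is the smallest that 3 against 3 libraries allow. The controls of the AP-2eCre line against those of the OMPCre line also gave 0 of 9, against 0.0837% of all genes, and 0 by DESeq2, against 0.735%. Ebf1 was the 1 of 9 with an unadjusted p under 0.05 there, against 6.46% of all genes, at -0.21 (-0.40 to -0.02), and its libraries overlapped. That count was 0 with counts from length-scaled TPM and without any of several single libraries, such as heterozygote replicate 1 of the AP-2eCre line (-0.15).

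At the transcript level 0 of 50 member transcripts passed in the AP-2eCre cKO, against 0% of 58883, and 0 of 48 in the OMPCre cKO, against 0.00337% of 59367, both by edgeR. DESeq2 also called 0 member transcripts in either, beside 1.56% and 1.25% of all transcripts, and 1 in each had an unadjusted p under 0.05 by edgeR, beside 4.84% and 2.53% of all transcripts. Leaving out single libraries gave 0 to 3 in each. Ebf2 and Ebf1 were carried by a single main transcript, Ebf2-203 with 97.8% and Ebf1-201 with 86.9% of counts (Ebf1-202 held 8.41%), as was Lhx2 by Lhx2-201 with 88.8% (Lhx2-203 held 6.61%). Emx2 was shared by Emx2-201 (45.3%) and Emx2-202 (41.1%), Ldb1 by Ldb1-201 (43.6%), Ldb1-207 (24.4%), Ldb1-205 (16.3%) and Ldb1-206 (6.67%), and Ebf3 by Ebf3-201 (54.7%), Ebf3-204 (29.3%), Ebf3-208 (7.29%) and Ebf3-202 (6.14%). Kdm1a was shared by Kdm1a-202 (47.7%), Kdm1a-201 (31.6%), Kdm1a-207 (10.2%) and Kdm1a-208 (7.14%), and Ebf4 by Ebf4-201 (52.8%), Ebf4-202 (25.4%) and Ebf4-206 (12.6%). The shares of Ebf4-201 ran from 0 to 100% between libraries.

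The estimated shares of Atf5 transcripts and of Kdm1a-208 differed with the style of the file names within each group. They are shares of whole transcripts, of 965 bases for Kdm1a-208 and 3028 for Kdm1a-202. Reads over the first exons of Atf5 or over the 12-base exon were not counted, so start and exon use were not measured. Of the 18 libraries, 12 have file names with a letter code and 6 have names made of the line and a number, and the labels do not say what the styles stand for. Atf5-201, from the outer start shown above, held 88.1 to 94.6% of Atf5 counts in the 6 and 8.2 to 71% in the 12. Atf5-202, from the inner start, held 5.24 to 11.9% and 15.6 to 72.2%, and the shorter Atf5-203 0 to 4.39% and 8.23 to 27%. The library with conflicting labels, also named by line and number, was at 72%, 19% and 8.96%. Its Atf5-202 and Atf5-203 shares were within the ranges of the 12. Kdm1a-208, with the 12-base exon, held 8.74 to 17.1% of Kdm1a counts in the 6 and 3.26 to 8.44% in the 12. In the library with conflicting labels it held 8.27%, below the others named by line and number and within the range of the 12. In all, 4 of 25 shares of member transcripts did not overlap between the styles of the 18 libraries, against 2.99% of 27386 shares tested. They were Kdm1a-208 and the 3 Atf5 transcripts, whose shares make up the whole gene and so move together. Among gene levels the count was 0 of 9, against 2% of genes. Within every group, though, the library named by line and number had the highest Atf5 and the highest Ebf4 CPM. With the style as a term in the fit, Ebf3 in the OMPCre cKO kept 0.31 and Lhx2 in the AP-2eCre cKO kept 0.34. Atf5 went from 0.31 to 0.35 in the AP-2eCre cKO (edgeR p 0.203 to 0.0708, adjusted 0.483 with the term). Over both lines Atf5 went from 0.23 to 0.24 (edgeR p 0.118 to 0.0342, adjusted 0.43 with the term). There 4 of 9 then had an unadjusted p under 0.05, beside 2084 of 19465 genes.

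**Figure D5:**
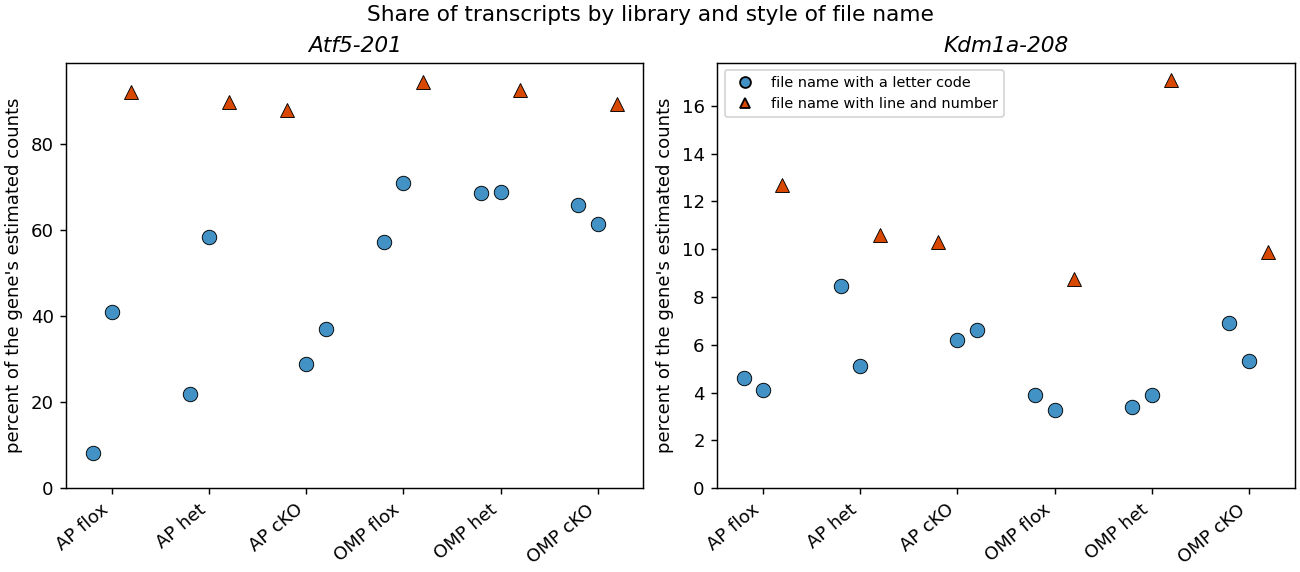
Share of Atf5-201 (left) and Kdm1a-208 (right) in the gene's estimated counts, in percent, for 18 libraries by group. Triangles are the 6 libraries whose file name gives line and number, at 88.1 to 94.6% and 8.74 to 17.1%, and circles are the 12 with a letter code, at 8.2 to 71% and 3.26 to 8.44%.

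Of 55 genes listed around the regulators, 54 could be tested, and none passed edgeR's test in a cKO comparison. In the AP-2eCre cKO 7 were higher and 1 lower at an unadjusted p under 0.05, beside 10.2% of all genes, and in the OMPCre cKO 6 and 0, beside 3.95%. By the lowest p these were Rtp1, a receptor trafficking protein (log2 fold change 0.39), Zfp423, a zinc-finger partner of Ebf proteins (0.47), and Lmo1, a LIM-only protein (0.55), in the AP-2eCre cKO. In the OMPCre cKO they were Ssbp2, which binds Ldb1 (0.21), Gse1, found with Kdm1a complexes (0.21), and Meis2, an apical VSN factor (0.20).

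By role, the partners and relatives of Lhx2, Ldb1 and Emx2 had 8 of 10 higher in each cKO comparison, with medians of 0.12 and 0.05. Lhx9, a relative of Lhx2, was the untested gene, at no more than 0.109 CPM. The PERK and unfolded protein branch upstream of Atf5 had 3 higher and 6 lower in the AP-2eCre cKO and 5 and 4 in the OMPCre cKO. The Kdm1a complex had 7 higher and 4 lower, then 5 and 6. Heterochromatin silencing genes had 12 higher and 3 lower in the AP-2eCre cKO and 3 and 12 in the OMPCre cKO, with medians of 0.06 and -0.05, and none had an unadjusted p under 0.05. Both Ebf partners, all or 3 of 4 feedback and trafficking genes, and 2 or 3 of 3 identity factors were higher.

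The genes whose levels followed each regulator most closely over 18 libraries are given as a description, since all points share their libraries. For Atf5 they were Palm, Cacnb3 and Igsf8 (r 0.95, 0.95 and 0.94). For Lhx2 they were 1700037H04Rik, Efna3 and Nipsnap1 (0.93, 0.92 and 0.92), and for Ldb1 Cpt1c, Mnt and Zfp609 (0.87, 0.80 and 0.78). Emx2 went with Pbx3, Lrrc49 and Astn2 (0.85, 0.85 and 0.83), and Kdm1a with Gm11966, Nat2 and Stard7 (0.77, 0.76 and 0.74). Among the Ebf genes, Ebf1 went with Kcnh7, B4galt6 and Ptpdc1 (0.91, 0.88 and 0.85), Ebf2 with Cntn4, Clgn and Phactr1 (0.90, 0.89 and 0.89), and Ebf3 with Epb41l3, Adgrl3 and Pkib (0.87, 0.87 and 0.86). Ebf4 alone had an odorant receptor gene first, Olfr741 (0.85), followed by Adcy3 (0.84) and Rev1 (0.82). Once each group's mean was removed, these had 0.49, 0.65 and 0.78. Between regulators, Ebf1 and Emx2 had r = 0.78 (Spearman 0.62) and Ebf3 and Lhx2 had 0.76 (Spearman 0.70). With Trpc2, Ebf2 had 0.80 (Spearman 0.56) and Atf5 0.78 (Spearman 0.58). Spearman values of the closest genes were 0.67 to 0.68 for Emx2 and 0.69 to 0.81 for Ebf2.

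Letters of the kind these factors bind were counted in RefSeq windows (GRCm38.p6) from 250 bases before to 50 after each start, on both strands. The homeodomain core TAATTA was in 5.29% of 32851 windows, in 18.6% of odorant receptor, 17.1% of V2r and 7.32% of V1r windows, and among the regulators in that of Emx2. The paired Ebf half-sites CCCNNGGG were in 13.7% of all windows, in 3.06% of odorant receptor, 19.7% of V2r and 0.488% of V1r windows, and in windows of Lhx2, Ebf3 and Ldb1. The motifs cannot overlap each other. Receptor windows had a median GC content of 35 to 38% against 52.7% over all, and 8 of the 9 regulators had a window. A match is a description of letters and not a binding site.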

How the data were processed

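RNA of whole VNOs was sequenced by the authors as stranded polyA+ libraries with single 75 bp reads and quantified with salmon 0.14.0, per the labels and the submitters' processing notes, which also name DESeq2 1.22.2 and the GRCm38 build. The deposited estimated counts are not normalized and need not be whole. The deposited TPM values are scaled per transcript length and library. Deposited lengths of all 116072 matched transcripts, of 116248 listed, equalled the full exons of GENCODE vM21. The 176 unmatched held at most 0.032% of a library.

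Estimated counts were summed per gene over 35596 genes and rounded. Comparisons used edgeR 4.0.16 (quasi-likelihood test, TMM, filterByExpr, Benjamini-Hochberg over all features tested, two-sided, called at an adjusted p under 0.05) in R 4.3.3. CPM values are TMM-scaled over 18 libraries. Single levels were tested by exact two-sided permutation of mean log2(CPM + 1), by the absolute difference. The fits across genes and transcripts were tested on simulated counts. Alternatives were DESeq2 1.42.0, other scalings, filters and controls, a replicate block, a term for the style of file name, and leaving out each library. Among 153 pairs of libraries the lowest mean chi-square per gene was 44, so none was counted as a copy.

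The 9 members and all gene lists were chosen with earlier results of these data known. The text names pathway genes that passed the adjusted test and, in each cKO comparison, the 3 with the lowest unadjusted p; the 3 genes with the highest r to each member; and transcripts with at least 5% of a member's counts. One library whose title and genotype labels conflict was left out of all groups.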

Additional observations from a re-analysis of the deposited data

Results flagged for a closer look

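Lhx2 in heterozygote replicate 1 of the AP-2eCre line, at 45.8 CPM, lay far from the other 5 controls of that line, at 57.3 to 62.7 CPM, by Dixon's criterion. Chance alone marks about 1 in 20 groups, and 18 groups of 6 controls were examined. Kdm1a was higher in every heterozygote of the AP-2eCre line than the mean of its Smad4flox/flox controls, by 0.09 on the log2 scale, and in the OMPCre line every heterozygote was lower, with a log2 difference of -0.11. This difference between the lines was not tested. The library with conflicting labels held Ldb1 at 82.5 CPM and Ebf4 at 9.44 CPM, above all 6 controls of the AP-2eCre line (up to 78.7 and 8.63 CPM).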

How the results depend on the processing

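With edgeR, 0 of 9 were called in each comparison under every alternative run, also when each library was left out (range 0 to 0), and 0 under the replicate block. With DESeq2 the count was 1 in the OMPCre heterozygotes (Ebf4) and 1 over both lines (Ebf3), the latter added after the data were seen. Calls over all genes rose with DESeq2 from 7 to 316 (AP-2eCre cKO), 0 to 46 (OMPCre cKO), 8 to 147 (OMPCre heterozygotes) and 22 to 104 (both lines). Exact permutation p-values under 0.05 numbered 3 of 18, 4 with TPM, and 2 to 3 without each library. In deposited TPM, Lhx2 in the AP-2eCre cKO (43.4 to 51) overlapped its controls (14.4 to 43.5). So did Ebf3 (31.7 to 48.5 against 21.2 to 50.5) and Ebf1 (118 to 143 against 94.7 to 150) in the OMPCre cKO. Atf5, Ebf3 and Ebf1 (127 to 179 against 71.6 to 125) in the AP-2eCre cKO did not. The share of all genes without overlap in TPM was not counted. Same-numbered libraries of the OMPCre line had a mean correlation of 0.238, over 0.1 in 7 of 9 pairs, and those of the AP-2eCre line -0.0826, so the numbers were not taken as pairs.

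Changes of sign in the values examined were all in ones whose intervals held 0. With counts from length-scaled TPM, Emx2 was -0.02, -0.06 and -0.04 (AP-2eCre, OMPCre, both lines), Ldb1 0.00 and Ebf2 0.00 in the OMPCre cKO, and Kdm1a 0.01, Ebf2 0.00 and Ebf4 0.01 over both lines. With Smad4flox/flox controls only, Emx2 was 0.00 (AP-2eCre), Ldb1 0.01, Kdm1a -0.05, Ebf2 0.09 and Ebf4 0.40 (OMPCre), and Ebf2 0.03 and Ebf4 0.33 over both lines. With heterozygotes only, Ebf2 was 0.02 (AP-2eCre), and with 18 libraries in 1 fit 0.00 (OMPCre). Leaving out each library gave Ebf2 -0.07 to 0.05 (AP-2eCre), -0.08 to 0.07 (OMPCre) and -0.04 to 0.03 (both), Ldb1 -0.06 to 0.01, Kdm1a -0.02 to 0.04 (OMPCre) and Ebf4 -0.06 to 0.08 (both). In the OMPCre heterozygotes, length-scaled TPM gave Lhx2 -0.16, Emx2 -0.08 and Ebf1 -0.10 (0.03, 0.02 and 0.05 otherwise), and leaving out each library gave Lhx2 -0.07 to 0.12 and Emx2 -0.03 to 0.07. For the difference between lines, Ebf3 was 0.03 with length-scaled TPM and -0.08 to 0.04 without each library. Member transcripts at an unadjusted p under 0.05 in the OMPCre cKO numbered 4 under the replicate block and 4 with the style of file name as a term. The causes were not tested. With 3 libraries a group, differences of the size seen for Lhx2 and Ebf3 did not pass adjustment over all genes by edgeR.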
